A study of Homo sapiens with 29 samples.

Results

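The effect of the compound WX-02-23 on open chromatin in a WT-FOXA1 line was read from 4 of 29 ATAC-seq libraries made from the human prostate cancer line 22Rv1: 2 given DMSO and 2 given WX-02-23. The cells of all 4 libraries overexpressed Y36C-PHF5A, carried doxycycline (Dox)-inducible WT-FOXA1 and received Dox. The DMSO libraries were given 0.1% DMSO and the WX-02-23 libraries 20 µM WX-02-23, each for 3 h. Overlapping or touching peaks of the 4 lists were merged into 103950 regions, against 166696 regions when the lists of all 29 libraries are merged. The other libraries come from parental 22Rv1 cells (DMSO, WX-02-23, its stereoisomer WX-02-43 and pladienolide B), from the same line without Dox or with pladienolide B, and from a matching line with Dox-inducible C258A-FOXA1. In short, the regions that lost their peak after WX-02-23 were weak and narrow, and nearly all strong regions still had a peak. Regions on which replicates disagreed were weak and narrow too. Most kept regions were narrower after WX-02-23, with lower summits over background. A change in the cells and a difference in library quality cannot be told apart here. The line still carries its own FOXA1, so the induced protein adds to it. The labels do not say whether the line is 1 clone, and WX-02-23 without Dox was not analysed here. The labels do not say that replicates were separate cultures, so p-values measure only the spread between these libraries, which may be technical.

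FOXA1 is a pioneer transcription factor: its forkhead domain binds DNA wrapped on nucleosomes and helps to open it for other factors. In prostate epithelium and prostate cancer it works beside the androgen receptor and is bound mainly at enhancers. WX-02-23 is a stereoprobe that reacts covalently with a cysteine of FOXA1, the residue replaced by alanine in C258A-FOXA1. The same chemotype binds the spliceosome, as pladienolide B does, and the Y36C change in the splicing factor PHF5A blunts that action. In ATAC-seq a transposase cuts accessible DNA, and a peak marks a stretch with more cuts than the background. Where no peak was called, the DNA may yet be accessible at a level too low for that library to show.

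The DMSO lists held 88140 and 85009 peaks, and the WX-02-23 lists held 67815 and 62832. Both WX-02-23 lists were thus shorter than both DMSO lists, and the mean fell by 21251 peaks (SE 2943). A two-sided exact permutation test gave p = 0.333, the smallest that 2 against 2 libraries allow. The bases covered by peaks were 32.1 and 30.6 Mb after DMSO and 23.6 and 21.8 Mb after WX-02-23. Read totals were not used here. The background used by the peak caller, a relative measure of depth, was 0.869 and 0.844 reads per base in the DMSO libraries and 0.903 and 1.26 in the WX-02-23 libraries, within the range of all 29 libraries. The shorter lists were therefore not the ones with the lower background. The lowest summit called held 6 reads in both DMSO libraries and in WX-02-23 replicate 1, and 7 in WX-02-23 replicate 2. Regions with fewer reads were not detectable at this depth.

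**Figure D1:**
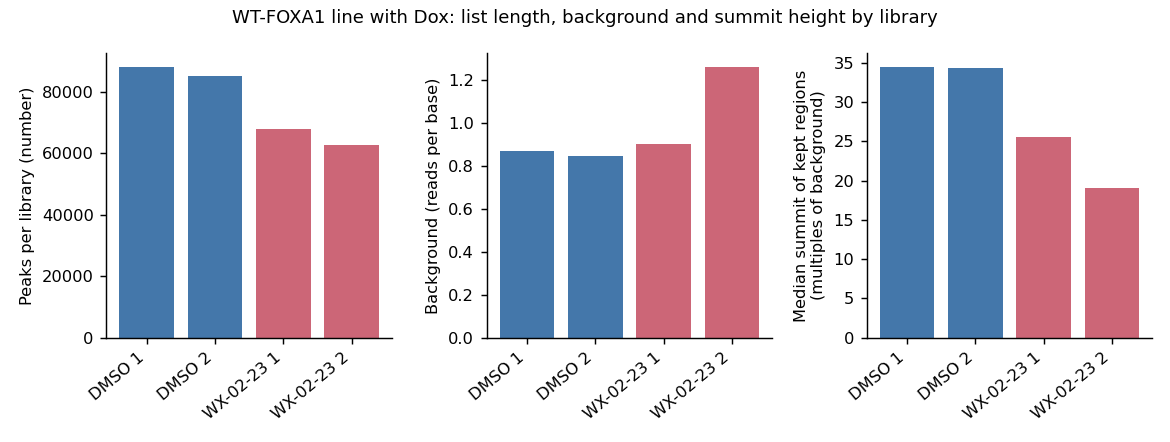
Each bar is 1 library of the WT-FOXA1 line with Dox (blue DMSO, red WX-02-23). The left axis gives the number of peaks, the middle axis the background in reads per base, and the right axis the median summit height of the kept regions as a multiple of that background. Both WX-02-23 libraries have fewer peaks and lower summits relative to background than both DMSO libraries, and WX-02-23 replicate 2 has the highest background of the 4.

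Regions were called kept when all 4 lists held a peak in them, lost when both DMSO lists and neither WX-02-23 list did, gained in the reverse case, and mixed otherwise. As deposited, 48674 regions (46.8%) were kept, 12130 (11.7%) were lost, 1333 (1.28%) were gained and 41813 (40.2%) were mixed. Of the 71763 regions held by both DMSO lists, 67.8% were held by both WX-02-23 lists, 15.3% by 1 of them and 16.9% by neither. Of the 51978 regions held by both WX-02-23 lists, 93.6% were held by both DMSO lists and 2.56% by neither. Lost regions outnumbered gained ones, which made up 9.90% of the changed regions. No test of these counts can pass 0.05 with 2 against 2 libraries, and they are given as descriptions. Replicates did not hold the same regions either: 10959 regions had a peak in DMSO replicate 1 alone and 8065 in DMSO replicate 2 alone. Regions seen in a single WX-02-23 library alone numbered 3228 and 2194.

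The excess of lost over gained regions moved with the difference in list length. When each list was reduced to its 62832 peaks with the best deposited p-values, the length of the shortest list, the 4 lists merged into 82882 regions. Of these, 43142 (52.1%) were kept, 3976 (4.80%) lost and 3198 (3.86%) gained. The lost share of the regions held by both DMSO lists was then 7.54%, and the gained share of the regions held by both WX-02-23 lists was 6.36%. Gained regions made up 44.6% of the changed regions. Among the 5000 strongest peaks of each list, 183 of 6396 regions (2.86%) were lost and 191 (2.99%) gained. At 20000 peaks the counts were 868 (3.46%) and 823 (3.28%) of 25089. At 40000 they were 2264 (4.37%) and 1929 (3.73%) of 51771. The ratio of lost to gained regions was 0.958 at 5000 peaks, 1.05 at 20000 and 1.24 at 62832. Lists cut to equal length hold equal numbers of peaks, so lost and gained counts are drawn together by construction. The counts at equal length therefore do not measure the balance of losses and gains in the cells.

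**Figure D2:**
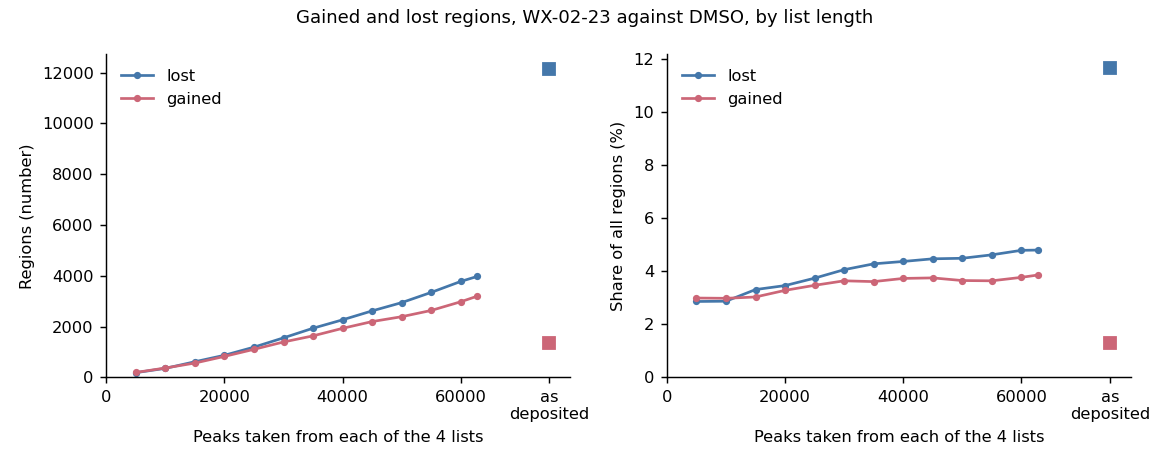
The horizontal axis is the number of strongest peaks taken from each of the 4 lists, with the lists as deposited at the far right (squares). The left vertical axis counts lost (blue) and gained (red) regions, and the right axis gives them as a share of all regions in percent. The curves run close together up to 62832 peaks, where 3976 regions were lost and 3198 gained, and part as deposited, at 12130 and 1333. Lists of equal length draw the curves together by construction.

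Shortening took peaks mainly from the DMSO lists and none from WX-02-23 replicate 2, whose own length it is. The shares that regain a peak in the full lists therefore differ largely by construction. Of the 3198 regions gained at equal length, 64.9% had a weaker peak in at least 1 deposited DMSO list, and 1034 had one in both. Of the 3976 regions lost at equal length, 11.6% had a weaker peak in a deposited WX-02-23 list. Changes that held both ways are the stricter sets. There were 3514 regions in both equal-length DMSO lists and in no deposited WX-02-23 list, beside 12130 lost regions as deposited. The reverse rule gave 1124 regions, beside 1333 gained ones.

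Strength within the DMSO lists separated lost from kept regions. The regions held by both DMSO lists were ordered by the mean percentile of their deposited p-value and cut into 5 classes of equal number, from weakest to strongest. The lost share was 50.9% in the weakest class, 25.6% in the second, 7.09% in the middle, 0.913% in the fourth and 0.0139% in the strongest, where 2 of 14352 regions were lost. At equal list length the shares were 26.0%, 9.29%, 2.13%, 0.218% and 0.00948%. Gained regions showed the same order within the WX-02-23 lists, with 9.08%, 3.07%, 0.596% and 0.0770% of the 4 weaker classes and no region of the strongest class. At equal length these shares were 21.6%, 8.20%, 1.91% and 0.149%, again with none in the strongest class. Strong accessible regions thus neither appeared nor disappeared, apart from the few lost ones counted here. The classes use the same lists as the calls, so this is a description and not a test.

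**Figure D3:**
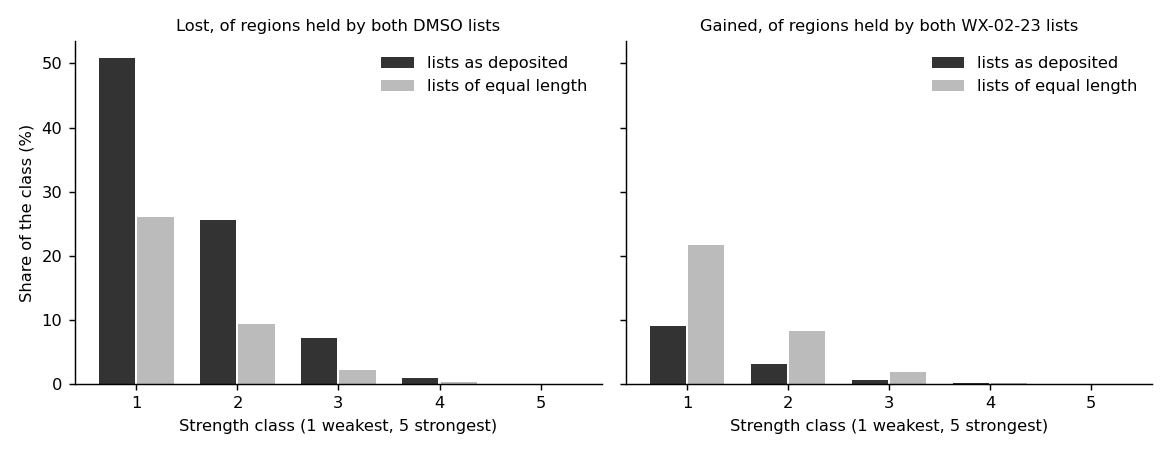
The left panel gives the lost share, in percent, of the regions held by both DMSO lists, and the right panel the gained share of those held by both WX-02-23 lists, in 5 strength classes from 1 (weakest) to 5 (strongest). Dark bars are lists as deposited and light bars lists of equal length. Both shares fall from class to class, from 50.9% to 0.0139% for lost regions as deposited.

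The same order was seen in reads. Regions held by both DMSO lists were grouped by the lower of their 2 DMSO summits. Of those whose lower summit held 6 to 9 reads, 53.2% were lost. The share was 33.0% at 10 to 14 reads, 13.9% at 15 to 19, 6.47% at 20 to 29 and 1.60% at 30 to 49. At 50 to 224 reads it was 0.0766%, or 9 of 11746 regions.

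Lost regions were also narrow. In the DMSO lists the median peak width was 225 and 217 bp at lost regions and 388 and 378 bp at kept ones. At mixed regions, where replicates disagreed, it was 212 and 211 bp. The median percentile of mixed peaks was 23.5 and 23.4, against 27.1 and 24.9 for lost peaks. Weak and narrow peaks were thus not particular to lost regions. For shares by width, a region counted by the smaller of its peak widths in the 2 libraries of the group. Among regions held by both DMSO lists, 49.9% of those under 200 bp wide were lost, 12.4% of those from 250 to just under 300 bp, and 0.249% of those of 500 bp or more, which is 34 of 13637. Gained peaks had median widths of 218 and 209 bp in the WX-02-23 lists, where kept peaks had 331 and 318 bp. Only 1 of the 9321 regions of 500 bp or more in both WX-02-23 libraries was gained. Counted in single lists, 15 and 5 gained peaks in the WX-02-23 lists and 150 and 106 lost peaks in the DMSO lists were that wide. Width and strength go together, so widths were also set side by side within a strength class. In DMSO replicate 1 the lost and kept medians were 204 and 235 bp in the weakest class, 248 and 285 bp in the second, 296 and 324 bp in the middle and 353 and 402 bp in the fourth. Lost regions were narrower than kept regions of the same class in each of these 4 classes, and in DMSO replicate 2 as well. Strength still varies within a class, from percentile 0.244 to 29.6 in the weakest, and its part in these gaps was not tested. The local background of DMSO replicate 1 lay above the genome-wide one at 61.2% of the kept and 57.7% of the lost regions in the weakest class, and at 72.7% and 64.0% in the second. Without regard to strength the shares were 90.1% of kept and 61.1% of lost peaks, a wider gap than within any strength class.

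The kept regions did not look the same in the 4 libraries. Their median width was 402 and 392 bp after DMSO and 347 and 332 bp after WX-02-23. In the 4 pairings of a WX-02-23 with a DMSO library the median log2 difference in width ran from -0.21 to -0.13, with 72.1% to 80.5% of the kept regions narrower after WX-02-23. Between the DMSO replicates it was -0.02, and between the WX-02-23 replicates it was -0.03. Kept regions held more than 1 peak in 3.57% and 4.07% of cases in the DMSO lists and in 5.64% and 5.70% in the WX-02-23 lists. After each library's widths were centred on their median, limma called 0 of the 48674 kept regions narrower (0%) and 0 wider (0%) at an adjusted p of 0.05. At an unadjusted p under 0.05 it gave 3122 narrower (6.41%) and 2160 wider (4.44%) regions. The narrowing was thus seen in most of the kept set. Without centring, which leaves that shift in the widths, limma also called 0 regions. With 2 libraries a group the test therefore cannot show whether single regions changed beyond the shift.

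Summits of the kept regions fell with the widths. Their median height was 34.5 and 34.4 times the background after DMSO and 25.5 and 19.1 times after WX-02-23. The median log2 ratio of the group means was -0.59. Both WX-02-23 values lay below both DMSO values in 81.6% of the kept regions and above both in 0.964%. This lower contrast of peaks to background, in 81.6% of the kept set, stands beside the lost regions, the shorter lists and the narrower widths. A change in the cells and a difference in library quality cannot be told apart in these 4 lists.

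Ranks within lists of 1 length do not use the height itself, and were taken among the 43142 regions kept at equal length. With each list cut into 4 equal rank bins, 68.7% of them stayed in the same bin, 16.9% were in a lower bin after WX-02-23 and 14.4% in a higher one. The SD of the change in percentile was 12.7 points between the DMSO replicates, 14.1 between the WX-02-23 replicates, and 15.7 and 15.6 between libraries of the 2 groups with the same number. Most of the movement was thus of the size seen between replicates. A fall of at least 25 points, from the lower DMSO percentile to the higher WX-02-23 percentile, was met by 430 regions (0.997%). A rise of that size was met by 390 regions (0.904%).

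Single regions show what these classes look like. All coordinates are hg19, counted from 1, the fold enrichments over local background are the authors' own, and the genes there were not looked up. The strongest lost region that did not depend on list length lay on chromosome 20 from 9423360 to 9423882. Its fold enrichment was 20.3 and 18.2 in the DMSO libraries, with 51 and 53 reads at the summit, and neither WX-02-23 list held a peak there. All 25 other libraries held it, among them the 5 other WX-02-23 libraries. The same was true of the lost regions on chromosome 10 from 73391195 to 73391772, with folds of 12.5 and 13.4, on chromosome 13 from 89066915 to 89067281, with folds of 15.5 and 14.7, and on chromosome 14 from 26311438 to 26312007, with folds of 12.4 and 13.1. On chromosome 11 from 55030579 to 55030911, with folds of 15.6 and 14.9, the exception among the 25 was 1 of 3 parental WX-02-23 libraries. On chromosome 19 from 13102110 to 13102471, with folds of 10.5 and 10.6, a peak was missing from both C258A-FOXA1 WX-02-23 libraries and present in the other 23. Of these 6 regions, 4 thus had a peak in each of the 5 other WX-02-23 libraries.

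The strongest gained regions differed more among themselves. The first lay on chromosome 13 from 105137921 to 105138415, with folds of 11.8 and 11.1 and 24 reads at the summit in each WX-02-23 library. It was held by all 3 parental and both C258A-FOXA1 WX-02-23 libraries and by none of the other 20. The same held on chromosome 13 from 67660373 to 67660720, with 20 and 22 summit reads, and from 27083900 to 27084430, with 25 and 26 summit reads. In contrast, the gained region on chromosome 5 from 172214062 to 172214452, with folds of 8.43 and 8.70, was in no other library. The one on chromosome 11 from 64175072 to 64175525, with folds of 9.96 and 10.1, was in 1 pladienolide B library of the WT-FOXA1 line alone. On chromosome 1 from 227632415 to 227632876, with folds of 8.02 and 8.83, a peak was also present in DMSO libraries of the other lines, 2 of 3 parental and 2 of 2 C258A-FOXA1.

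Among regions kept at equal length, the largest fall in rank was on chromosome 16 from 89904111 to 89904484. Its percentile was 72.6 and 73.6 in the DMSO lists and 9.71 and 4.69 in the WX-02-23 lists, and its summit held 35 and 37 reads against 11 and 11. Next came chromosome 2 from 186678454 to 186678805, at 69.8 and 76.8 against 5.24 and 9.01, and chromosome 2 from 51307081 to 51307477, at 74.9 and 76.3 against 5.24 and 15.1. The largest rise was on chromosome 9 from 97040884 to 97041485, at 1.16 and 8.55 after DMSO and 72.3 and 74.3 after WX-02-23, with 11 and 12 summit reads against 26 and 28. It was followed by chromosome 14 from 64133082 to 64133582, at 16.7 and 23.4 against 85.1 and 80.2, and chromosome 6 from 81348467 to 81348754, at 1.16 and 3.59 against 59.2 and 61.3. In none of the 6 did the groups overlap, as the rule for choosing them requires.

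Lost and gained regions were spread over the genome. Among the autosomes the lost share of DMSO-held regions ran from 10.3% on chromosome 19 to 19.9% on chromosome 13. Chromosome 19 also had the lowest autosomal gained share, at 0.882%, and its DMSO-held regions ranked higher, at a median percentile of 72.6 against 51.0 on chromosome 13. Lost regions lay a median of 17.2 kb from the nearest kept region, gained regions 18.6 kb, and kept regions 13.3 kb from the next kept one. A DMSO-held region whose nearest DMSO-held neighbour was lost was itself lost in 18.3% of cases, against 16.6% where the neighbour was not lost. For gained regions the same shares were 4.78% and 2.50%, and 7.02% and 1.74% for neighbours within 2 kb. Over all distances, a WX-02-23-held region with a gained neighbour was thus gained more often than the base rate of 2.56%. Within 2 kb the base rate was 1.84%, and 171 regions had a gained neighbour. Beyond 50 kb the shares were 3.56% and 3.66%. The shares are given without a test, and strength was not held fixed for gained regions.

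The C258A-FOXA1 line, in which the induced protein lacks the cysteine, received the same treatments and has its own DMSO libraries. Its lists gave 2583 gained (2.36%) and 2922 lost (2.67%) regions of 109435 as deposited. At 62832 peaks per list they gave 2094 gained (2.63%) and 2320 lost (2.91%) of 79731. To set the lines side by side, regions were merged from the DMSO lists of each line alone, and the share of those in both DMSO lists that a treated library still held was taken. There were 72092 such regions for WT-FOXA1 and 71758 for C258A-FOXA1. In the WT-FOXA1 line the WX-02-23 libraries held 77.6% and 73.4%, and in the C258A-FOXA1 line they held 85.6% and 94.0%. Both WT-FOXA1 values lay below both C258A-FOXA1 values, with a mean difference of -14.3 points (SE 4.74). At equal list length the shares were 87.5% and 86.8% against 90.0% and 91.8%, a difference of -3.77 points (SE 0.985). A two-sided exact permutation test gave p = 0.333 both times, the smallest this design allows.

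The regions were then taken by strength class. At equal length the share held in the weakest class was 59.2% ± 1.15 for WT-FOXA1 and 66.8% ± 3.14 for C258A-FOXA1 (SD, n = 2 each). In the second class it was 81.7% ± 1.02 and 89.5% ± 2.47 (SD, n = 2 each). In the middle class it was 95.3% ± 0.374 and 98.2% ± 0.897 (SD, n = 2 each), and in the fourth class 99.5% ± 0.0601 and 99.9% ± 0.00665 (SD, n = 2 each). Near 100% the scale leaves no room for a gap, so the classes do not show where the lines differ most. After pladienolide B at 100 nM, which shares the DMSO libraries of each line, the order of the lines was not the same: the equal-length shares were 91.9% and 93.2% in the WT-FOXA1 line and 91.0% and 91.3% in the C258A-FOXA1 line. Peak contrast also differed between the lines. Over all peaks of a list the median summit was 21.9 and 22.5 times the background with DMSO and 19.9 and 15.9 times with WX-02-23 in the WT-FOXA1 line. In the C258A-FOXA1 line it was 25.3 and 21.9 times with DMSO and 26.2 and 20.7 times with WX-02-23. Contrast and share held did not go together in every library. C258A-FOXA1 WX-02-23 replicate 1, at 26.2 times, held 90.0% at equal length, and replicate 2, at 20.7 times, held 91.8%. The part of peak contrast in the difference between the lines was not tested.

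Parental 22Rv1 cells, which had no part in choosing the regions, have no inducible FOXA1 and show how far the WT-FOXA1 changes recur there. The parental lists are a separate set of libraries and hold more peaks than the WX-02-23 lists here. The cells of the 4 libraries also overexpressed Y36C-PHF5A, and its part in any difference from parental cells was not tested. The gained regions had a peak in 46.3%, 44.9% and 43.9% of cases in the 3 parental WX-02-23 libraries. In parental DMSO libraries the shares were 24.2%, 26.9% and 24.5%, and after the stereoisomer WX-02-43 they were 29.4%, 31.5% and 23.7%. The 3 WX-02-23 libraries lay above all 6 others, by 19.8 points (SE 1.09) over DMSO and by 16.8 points (SE 2.43) over WX-02-43.

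The lost regions behaved differently in parental cells. They still had a peak in 61.1%, 57.2% and 60.1% of cases after WX-02-23, against 63.0%, 66.8% and 64.0% after DMSO and 65.7%, 68.2% and 57.8% after WX-02-43. The difference from DMSO was -5.15 points (SE 1.64), without overlap, and that from WX-02-43 was -4.45 points (SE 3.35), where the values overlapped. Parental WX-02-23 libraries held 90.1% ± 0.203 of the kept regions and DMSO libraries 88.9% ± 0.312 (SD, n = 3 each). Two-sided exact permutation tests gave p = 0.1, the smallest possible with 3 against 3, for 5 of these 6 comparisons of 3 sets (0.12 after Benjamini-Hochberg adjustment) and 0.3 for lost regions against WX-02-43. That overlap depended on the set: for the regions lost at equal length the difference from WX-02-43 was -6.06 points (SE 2.37), without overlap, with a two-sided exact permutation p = 0.1. For the set as deposited, the overlap came from WX-02-43 replicate 3 alone, the shortest list of its group at 83748 peaks. Without that library the difference was -7.50 points, and without replicate 1 or 2 it was -3.56 or -2.30. For the regions gained at equal length the differences were 14.1 points (SE 1.09) from DMSO and 11.5 points (SE 2.41) from WX-02-43, also without overlap. The C258A-FOXA1 line moved the same way at gained regions, from 24.9% and 29.6% with DMSO to 38.4% and 52.8% with WX-02-23. At lost regions its values overlapped, with 64.1% and 67.8% against 43.8% and 64.9%. For the sets at equal length they did not overlap, with 80.5% and 84.3% against 60.1% and 79.6% at lost regions and 47.5% and 51.1% against 54.9% and 71.3% at gained ones. Pladienolide B replicate 2 of the WT-FOXA1 line, which shares the DMSO libraries of the comparison, held 56.5% of the regions gained at equal length, above the 3 parental WX-02-23 libraries at 54.3% to 55.6%. Without Dox, the DMSO libraries of the WT-FOXA1 line had a peak in 11.5% and 8.93% of the gained and in 50.1% and 46.5% of the lost regions.

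**Figure D4:**
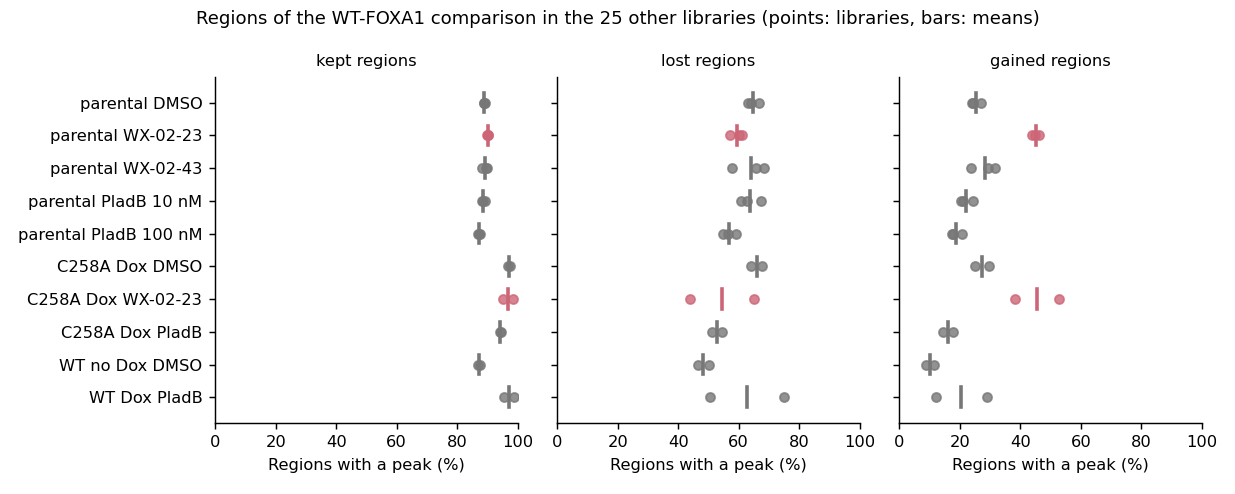
Each point is 1 of the 25 libraries outside the comparison, and the bar is the group mean. The horizontal axes give the percentage of the kept, lost and gained regions, from the lists as deposited, with a peak in that library. At these gained regions the WX-02-23 libraries (red) of parental and C258A-FOXA1 cells lie highest, at 38.4% to 52.8%, and at lost regions they overlap the other groups.

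Region by region, recurrence was partial. Of the 1333 gained regions, 238 (17.9%) were held by all 5 other WX-02-23 libraries, 24 of them by no other library, and 269 (20.2%) were held by none of the 25. Of the 12130 lost regions, 1334 were absent from all 5 other WX-02-23 libraries, and 8 of these were held by the 20 others. Another 753 (6.21%) were held by all 25. All 5 other WX-02-23 libraries also held 2431 (20.0%) of the lost regions, so the 17.9% alone does not set gained regions apart. None of those 2431 was missing from all 20 other libraries, as 24 of the 238 gained regions were. Lost regions were chosen for a peak in both DMSO libraries and gained regions for none. This contrast therefore does not set gained regions apart either.

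The regions that moved in rank here also stood apart in the parental WX-02-23 libraries. Percentiles were read in every list at 62832 peaks, with an absent region counted as 0. The 430 regions that fell in the WT-FOXA1 line had a median percentile of 55.5 ± 0.791 (SD, n = 3) in parental DMSO libraries, 40.8 ± 0.878 (SD, n = 3) after WX-02-23 and 55.0 ± 0.132 (SD, n = 3) after WX-02-43. The 390 regions that rose had 13.2 ± 2.88, 43.7 ± 1.11 and 18.0 ± 0.854 (SD, n = 3 each) in the same order. Against DMSO the differences after WX-02-23 were -14.7 points (SE 0.682) and 30.5 points (SE 1.78), and against WX-02-43 they were -14.1 (SE 0.513) and 25.7 (SE 0.811). In none of the 4 comparisons did the groups overlap, and two-sided exact permutation tests gave p = 0.1 in each, also after Benjamini-Hochberg adjustment over the 4. These tests, and those of the reverse lookup below, were not planned in advance. In the C258A-FOXA1 line, the falling set was at 53.0 ± 0.426 with DMSO and 41.8 ± 0.854 with WX-02-23 (SD, n = 2 each), and the rising set at 24.2 ± 1.21 and 45.1 ± 0.241 (SD, n = 2 each).

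The reverse lookup, with sets chosen in parental cells alone, asked what these 4 libraries do at regions picked without them. Among 44447 regions kept in all 6 parental DMSO and WX-02-23 lists of 62832 peaks, 132 fell and 131 rose by the same 25-point rule. The 132 regions had a median percentile of 55.9 and 56.5 in the WT-FOXA1 DMSO libraries and of 0 in both WX-02-23 libraries, because most of them had no peak there. A peak was present at 90.9% and 89.4% of them after DMSO and at 45.5% and 47.7% after WX-02-23. Both WX-02-23 values lay below both DMSO values at 102 of the 132 regions (77.3%), and above both at none. The 131 rising regions were at 17.4 and 21.5 after DMSO and at 60.7 and 57.9 after WX-02-23. Both WX-02-23 values lay above both DMSO values at 93 of them (71.0%) and below both at 4. With 2 against 2 libraries a two-sided exact permutation test gave p = 0.333 for each set, the smallest possible.

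In the C258A-FOXA1 line the falling set went from 50.6 and 52.6 with DMSO to 12.5 and 23.2 with WX-02-23, and a peak remained at 59.8% and 65.9% of its regions. The change was -56.2 points (SE 0.291) in the WT-FOXA1 line, where the median had reached the floor of the scale, and -33.8 points (SE 5.44) for C258A-FOXA1. The WT-FOXA1 change minus the C258A-FOXA1 change was -22.4 points (SE 5.44). Since both WT-FOXA1 WX-02-23 medians were 0, neither this SE nor that of the WT-FOXA1 change holds any spread between those libraries. Permuting the line labels within treatment gave a two-sided exact p = 0.0556, the smallest that 36 arrangements allow, and 0.111 when adjusted by Benjamini-Hochberg for the 2 sets. The rising set went from 2.47 and 2.07 to 43.4 and 49.3 in the C258A-FOXA1 line. Its rise differed between the lines by -4.30 points (SE 3.88; two-sided exact permutation p = 0.667), and the sign of this difference changed at 40000 peaks per list, to 0.688. Pladienolide B left the falling set at 53.3 and 56.1 and the rising set at 16.1 and 20.0 in the WT-FOXA1 line, and these libraries share the DMSO libraries above.

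**Figure D5:**
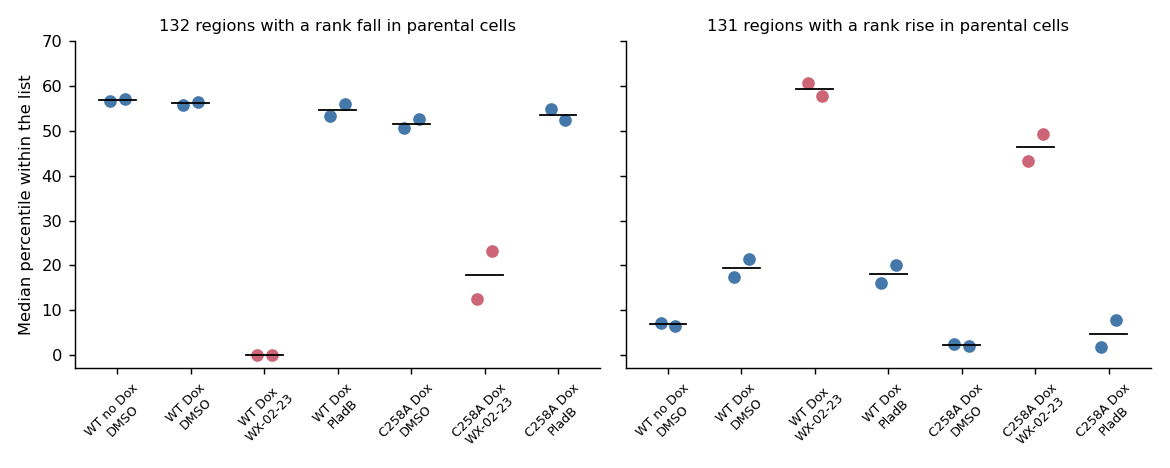
Each point is 1 engineered library and each line the mean of its group, with WX-02-23 in red. The vertical axis is the median percentile within the 62832 strongest peaks, for the 132 regions that fell and the 131 that rose after WX-02-23 in parental cells. In the falling set both WT-FOXA1 WX-02-23 libraries sit at 0 and both C258A-FOXA1 WX-02-23 libraries at 12.5 and 23.2, below all libraries without WX-02-23, and in the rising set the WX-02-23 libraries are the highest.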

How the data were processed

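The submitters' processing notes name Bowtie2, MACS2 and build hg19. For their versions, their options and any transposase shift, a value is not given in the sources used here. In 1 list per library, the authors deposited peaks with start and end in bp, a score, a fold enrichment (ratio), the −log10 p and the −log10 q of each peak. Being the authors' own, these values served for ranking, filtering and description inside a list only. The lowest −log10 q of a deposited list lay at about 2, a q-value of 0.01.

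Background and summit reads were read from the steps of the deposited fold and −log10 p values. The autosomes, X and Y were analysed, which leaves out 2 mitochondrial peaks in each of the 4 lists. Holding a region meant a peak with at least 1 bp of overlap. Widths were compared with limma 3.58.1 in R 4.3.3 on log2 summed width, with Benjamini-Hochberg adjustment, and group values by exact permutation tests. Replicate numbers were taken from the labels. With 2 pairs they could not be shown to pair the libraries: the Jaccard index of same-numbered libraries was 0.594 and 0.587, against 0.570 and 0.609 for the others.

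The regions named by position were the 6 lost and 6 gained regions of highest percentile that held under both list lengths, and the 3 largest falls and rises in rank. The members, sets and this rule were chosen with earlier results of these data known. Motifs, genes and sequences were not analysed here, since no hg19 genome was used here. Region classes and the width test were tested on simulated data. Scripts ran in Python 3.11.15 with pandas 2.3.3, numpy 2.4.6, statsmodels 0.14.6, scipy 1.17.1 and matplotlib 3.10.9.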

Additional observations from a re-analysis of the deposited data

How the results depend on the processing

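Of 178 alternative values for 31 results, 135 kept their direction or stayed within the limits of the count or spread, 42 moved and 1 reversed. With other list lengths, 3198 regions were gained and 3976 lost at the length of the shortest list, 28719 were kept and 2264 lost at 40000 peaks, and 15390 were kept, 823 gained and 868 lost at 20000. These settings hold fewer peaks by construction. With strength classes by fold enrichment the lost share was 40.7%, 11.5%, 2.45% and 0.202% in classes 1, 3, 4 and 5, counted from the weakest. At the length of the shortest list it was 26.0%, 9.29%, 2.13%, 0.218% and 0.00948% from weakest to strongest. Rank falls numbered 211 and rises 194 at 40000 peaks, and rises 648 with ranking by fold enrichment. The difference between the lines in the parental rising set reversed to 0.688 points at 40000 peaks, and the cause was not tested. The lookups of rank sets in other libraries, in both directions, their tests and their alternatives were all chosen after seeing the data. A stricter q-value, another overlap, summit windows and regions from all 29 lists took none of the kept, gained and lost counts past 1.5 times.

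Leaving out each library in turn gave 2299 (DMSO replicate 2) to 4602 (WX-02-23 replicate 2) gained and 16118 (WX-02-23 replicate 2) to 23546 (DMSO replicate 2) lost regions, and 49965 to 55780 kept. At equal length it gave 5162 to 7897 gained and 6621 to 8739 lost regions. Rank falls ran from 1013 to 1892 and rises from 964 to 1394. These gained, lost and rank counts rose by over 1.5 times without any 1 of the 4 libraries, except the lost regions as deposited without WX-02-23 replicate 2. A rule over fewer libraries is easier to meet by construction. The retained share of the WT-FOXA1 line minus that of the C258A-FOXA1 line ran from -24.5 points (without WT-FOXA1 DMSO replicate 2) to -6.02 points (without C258A-FOXA1 DMSO replicate 1). With the replicate block, the pairs of same-numbered libraries differed by -21251 peaks (SE 926), the counts of kept, gained and lost regions were unchanged by construction, and limma called 0 regions narrower or wider, with 2919 and 1758 at an unadjusted p under 0.05. For the parental falling set, the change in the WT-FOXA1 line minus that in the C258A-FOXA1 line ran from -27.8 to -17.1 points. Without centring, limma also called 0, with 8147 and 538.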
